A study of Mus musculus with 6 samples.

Results

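10 genes that mark white and brown fat were followed in mouse adrenal glands: Adipoq, Retn, Lep, Car3, Cidec, Fabp4, Lpl, Ucp1, Cidea and Cox8b. They were chosen by symbol, as all probe sets that the platform annotation assigns to these names. All 10 were on the array, with 14 of its 12488 probe sets: 4 genes had a pair of probe sets and 6 had 1. The adrenals came from male mice 12 weeks old. One group of 3 carried a knockout of chromogranin A (Chga, a protein of the granules in which chromaffin cells store catecholamines), and the other group of 3 was wild type. No treatment is given for either group. Each array was read as 1 animal, and neither the genetic background nor the design of the deleted allele is stated in the labels. The labels name isolated adrenal glands and describe no step for the fat around them.

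White adipocytes store triglyceride in a single large droplet and release hormones such as adiponectin and leptin. Brown adipocytes hold many small droplets and many mitochondria, and burn fuel for heat through the uncoupling protein Ucp1. In the mouse the adrenal lies in a fat pad at the kidney that holds brown and white adipocytes, and the gland itself is made of a steroid-producing cortex and a medulla of chromaffin cells. Several of the 10 genes are also active outside fat: Car3 and Cox8b in muscle, Lpl in muscle and macrophages, and Fabp4 in capillary endothelium and macrophages.

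Values are array signals on a linear scale, which the authors had scaled to the same trimmed mean on all 6 arrays. The tissue label was borne out by adrenal genes, with Star at a signal of 67033 to 97225 and Pnmt at 29498 to 49330 over the 6 arrays. Chga itself lay at 858 to 1188 on the knockout and 30213 to 46719 on the wild-type arrays, by its brighter probe set. Knockout arrays 2 and 3 stood apart in skeletal muscle transcripts. The muscle list, with 13 of 13 genes on the array, summed to 87779 and 43993 on these 2 arrays. On the other 4 arrays it summed to between 11693 and 12752. Not every gene of the list followed: Ckm and Myh2 were not raised on knockout arrays 2 and 3, and Myh4 was lowest on knockout array 2. The same 2 arrays had Gapdh signal ratios, 3' over 5' end, of 1.30 and 1.29, against 0.762 to 0.831 on the others. Whether muscle RNA or RNA integrity has a part in the values that follow was not tested. Many of the values below, though not all, are also given with knockout array 1 as the only knockout array, or from a fit that also held the 3' to 5' ratio. A value with 1 knockout array is given with no test, since its spread comes from the wild-type arrays alone. The 3' to 5' ratio was raised mainly on knockout arrays 2 and 3, so it is partly confounded with genotype. The fit that held this ratio thus leans on knockout array 1 for its genotype difference. It is not a check separate from the values with knockout array 1 alone.

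No fat marker differed between the genotypes beyond the test's threshold, while several differed widely between arrays of the same genotype. Of the 13 member probe sets bright enough to test, 0 passed in limma at an adjusted p of 0.05 (Benjamini-Hochberg over all 7453 probe sets tested), where 0.443% of all probe sets passed. 1 of the 13 had an unadjusted p under 0.05, against 11.3% of all. The log2 change, knockout minus wild type, ran from -0.99 for Ucp1 to 0.93 for Cidec, with 9 probe sets above 0 and 4 below. Its median over the 10 genes, by their brightest probe set, was 0.22, against -0.01 over all probe sets tested. The sign of that median was not stable: it was -0.0189 without wild-type array 1 and -0.0283 in the fit that also held the 3' to 5' ratio, and it ran up to 0.38 without knockout array 1. Several genes spread widely over the 6 arrays: Ucp1 differed 11.5-fold between its lowest and highest array, Car3 6.91-fold and Retn 5.76-fold, where the median over all tested probe sets was 1.64-fold. In whole glands, fewer cells of a type and less RNA per cell cannot be told apart.

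**Figure D1:**
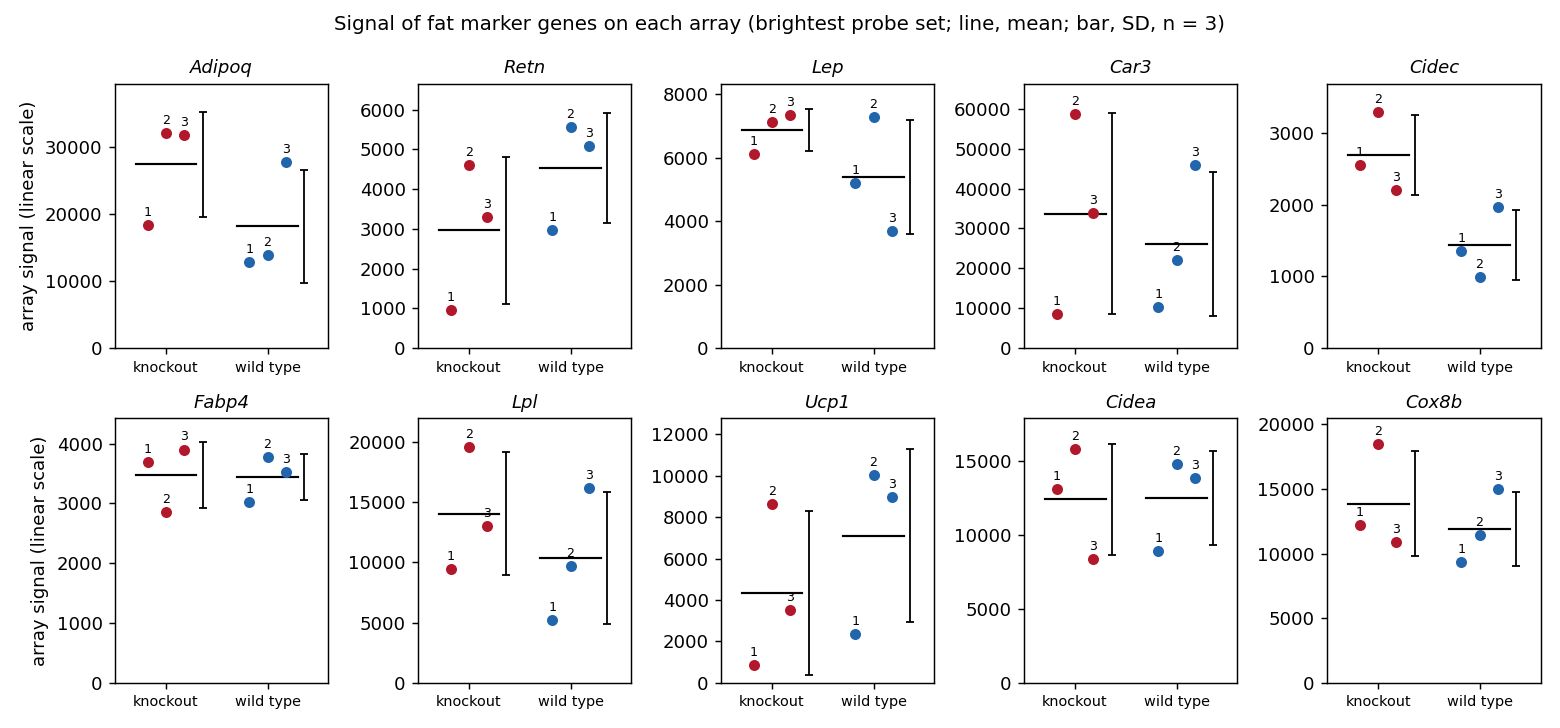
Array signal (linear scale from 0) of the brightest probe set of each of the 10 fat marker genes on each array. Points are single arrays, numbered by replicate, with knockout in red and wild type in blue; lines are means and bars are SD (n = 3). Cidec is the gene whose 3 knockout points all lie above the 3 wild-type points, while Ucp1, Retn and Car3 spread widely within both genotypes.

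Among the brown fat genes, Ucp1 varied most. With arrays in the order of their replicate numbers, here and below, its brighter probe set read 874, 8661 and 3496 in knockout and 2344, 10047 and 8955 in wild type. The lowest array of each genotype was thus replicate 1, the groups overlapped, and the signal differed 9.91-fold among knockout and 4.29-fold among wild-type arrays. Only 0.456% of the 7453 tested probe sets had a range over the arrays as wide as this one. The means were 4344 ± 3962 in knockout and 7115 ± 4168 in wild type (SD, n = 3), a log2 change of -0.99 ± 0.79 (SE) with a 95% interval from -2.77 to 0.79 (limma adjusted p = 0.675). The other probe set (of a kind whose probes can be shared with related sequences) read 481, 1084 and 1268 against 820, 2142 and 1360, with a log2 change of -0.61 (adjusted p = 0.639). Both probe sets were lowest on knockout array 1 and highest on wild-type array 2. Without knockout array 1 the change of the brighter one was -0.11, and without knockout array 2 it was -1.76, so that single arrays set its size. With knockout array 1 alone against wild type it was -2.75, and in the fit that also held the 3' to 5' ratio it was -3.36 (limma adjusted p = 0.511).

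Cidea and Cox8b, the other brown fat genes, varied far less than Ucp1. Cidea encodes a protein that joins small lipid droplets and is abundant in brown fat. It read 13071, 15774 and 8364 in knockout and 8878, 14812 and 13832 in wild type. Its groups lay on top of each other, with a log2 change of -0.03 and an interval from -0.62 to 0.57 (limma adjusted p = 0.979), whose sign turned when knockout array 3 was left out (0.23). Cox8b encodes a respiratory chain subunit isoform of brown fat and muscle. Its brighter probe set read 12181, 18462 and 10905 against 9356, 11395 and 14972, and the dimmer one 2804, 3195 and 2585 against 2022, 2647 and 2596. Knockout array 2 was highest and wild-type array 1 lowest on both. The log2 changes of Cox8b were 0.21 and 0.24 (adjusted p = 0.778 and 0.646), and the first was -0.02 without knockout array 2 and 0.0597 with knockout array 1 alone.

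The 3 genes of secreted fat hormones put the arrays in different orders, though Retn and Adipoq were both lowest on replicate 1 of each genotype. Retn, which encodes the hormone resistin, read 964, 4613 and 3302 in knockout and 2962, 5553 and 5082 in wild type. Knockout array 1 stood 4.79-fold below knockout array 2, and the wild-type arrays spanned 1.87-fold. The log2 change of Retn was -0.83 ± 0.51 (SE), with an interval from -1.98 to 0.32 (limma adjusted p = 0.569). It was -0.16 without knockout array 1, and -2.16 with that array alone. In the fit that also held the 3' to 5' ratio it was -2.63 (limma adjusted p = 0.102). The size of the Retn value thus moved with knockout array 1.

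Adipoq encodes adiponectin, which adipocytes release in large amounts. Its signal was 18419, 32112 and 31932 on the knockout arrays and 12806, 13911 and 27874 on the wild-type arrays. The groups overlapped through wild-type array 3. The means were 27488 ± 7854 and 18197 ± 8399 (SD, n = 3), a log2 change of 0.64 ± 0.31 (SE) with an interval from -0.07 to 1.35 (limma adjusted p = 0.483). The 2 highest Adipoq signals were those of the knockout arrays with muscle transcripts and high 3' to 5' ratios. With knockout array 1 alone the change was 0.11, and in a fit that also held the 3' to 5' ratio it was -0.07.

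Lep encodes leptin, the hormone by which fat signals its stores to the brain. Its brighter probe set read 6128, 7127 and 7359 in knockout and 5220, 7284 and 3701 in wild type, with a log2 change of 0.40 and an interval from -0.13 to 0.92 (limma adjusted p = 0.544). That change was 0.15 without wild-type array 3, 0.64 without wild-type array 2, 0.24 with knockout array 1 alone and 0.17 in the fit that also held the 3' to 5' ratio. The dimmer one was under the filter on low signals and was left out of the fit. It read 367, 284 and 424 against 280, 447 and 285, with overlapping groups and an exact two-sided permutation p of 0.90, where 3 arrays against 3 cannot go below 0.10. The probe sets of Lep also followed each other less over the 6 arrays (r = 0.627) than those of Lpl (0.922), Ucp1 (0.887) and Cox8b (0.825).

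The stretches before the start sites of Ucp1, Retn and Adipoq are shown because the first pair had the closest signals over the arrays of any members and the third is the white fat hormone they were set against. They are the 250 bases upstream of each start site, from RefSeq on GRCm38.p6, in 5' to 3' direction and all on the plus strand: chr8:83290098-83290347 for Ucp1, chr8:3655520-3655769 for Retn and chr16:23146286-23146535 for Adipoq. Capitals mark matches, on either strand, to 4 motifs searched: the TATA box as TATAAA, the CCAAT box as its own letters, a nuclear receptor core motif as AGGTCA and a core of the cAMP response element as TGACG.
Ucp1: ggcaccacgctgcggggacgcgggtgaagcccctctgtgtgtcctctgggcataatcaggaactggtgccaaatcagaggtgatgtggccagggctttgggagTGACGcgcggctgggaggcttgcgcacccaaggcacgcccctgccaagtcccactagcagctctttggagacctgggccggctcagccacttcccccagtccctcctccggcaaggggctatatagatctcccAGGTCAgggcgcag
Retn: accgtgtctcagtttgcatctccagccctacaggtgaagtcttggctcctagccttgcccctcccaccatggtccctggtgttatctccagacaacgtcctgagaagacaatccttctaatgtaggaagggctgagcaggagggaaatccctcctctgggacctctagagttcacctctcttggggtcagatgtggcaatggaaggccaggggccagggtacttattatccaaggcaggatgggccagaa
Adipoq: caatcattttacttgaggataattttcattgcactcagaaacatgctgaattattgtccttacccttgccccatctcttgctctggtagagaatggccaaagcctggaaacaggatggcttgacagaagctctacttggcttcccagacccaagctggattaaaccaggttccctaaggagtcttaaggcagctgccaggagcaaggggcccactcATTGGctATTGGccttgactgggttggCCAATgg
Of the 10 genes, 6 were in the promoter table, with 7 start sites. Ucp1 held AGGTCA, beginning 14 bases before its start site, and TGACG, 147 bases before it. Adipoq held 3 matches to CCAAT, on both strands and within 34 bases of the start. Retn held none of these letters, and no 2 matches overlapped. Among all 32851 stretches of the same length in the table, AGGTCA was in 14.0%, TGACG in 17.8%, CCAAT in 33.8% and TATAAA in 12.4%. These are matches of letters and were not tested as sites.

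Of the members that handle lipid inside the adipocyte or at its border, Cidec had the smallest p. Cidec encodes the droplet protein that lets white adipocytes form their single large droplet. It read 2557, 3294 and 2203 in knockout and 1354, 988 and 1964 in wild type, so that all knockout arrays lay above all wild-type arrays. The means were 2684 ± 557 and 1435 ± 493 (SD, n = 3). This 1.91-fold difference, a log2 change of 0.93 ± 0.27 (SE) with an interval from 0.32 to 1.54, had an unadjusted p of 0.00731 in limma and did not pass over all probe sets (adjusted p = 0.271). It was the only one of the 13 tested member probe sets without overlap. This share of the members is close to the background, where 7.55% of all tested probe sets had every knockout array above every wild-type array and 16.4% had no overlap in either direction. Its size was similar without the 2 arrays that carry muscle transcripts, at 0.88 with knockout array 1 alone, and over the fits that left out 1 array it ran from 0.69 to 1.18.

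Lpl encodes lipoprotein lipase, which frees fatty acids from circulating lipoproteins for uptake. Its brighter probe set read 9483, 19594 and 13049 in knockout and 5244, 9703 and 16186 in wild type. Its dimmer one read 5861, 7789 and 6305 against 3616, 6848 and 8381. Wild-type array 1 was lowest on both, and the groups overlapped. Without wild-type array 1 the change of the brighter one was 0.10, without wild-type array 3 it was 0.91 and with knockout array 1 alone it was 0.0165. Over all arrays the log2 changes of Lpl were 0.52, with an interval from -0.36 to 1.40, and 0.16 (limma adjusted p = 0.655 and 0.870), and both were below 0, at -0.15 and -0.07, in the fit that also held the 3' to 5' ratio.

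Fabp4, the fatty acid binding protein of adipocytes and capillaries, was the steadiest member. It read 3685, 2848 and 3900 in knockout and 3020, 3782 and 3530 in wild type, a 1.37-fold range over all 6 arrays. The groups overlapped fully, with a log2 change of 0.01 and an interval from -0.39 to 0.41 (limma adjusted p = 0.992). Endothelial or macrophage RNA in the signals of Fabp4 and Lpl was not tested. The endothelial list had 8 of 9 genes on the array, and summed to 27509 to 32518 in knockout and 21873 to 25022 in wild type. The macrophage list had 11 of 11 genes, and summed to 24591 to 43475 in knockout and 20414 to 25188 in wild type.

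Car3 encodes carbonic anhydrase 3, an abundant cytosolic enzyme of adipocytes that is also made in muscle and liver. It read 8508, 58783 and 33911 in knockout and 10408, 22100 and 45855 in wild type. Replicate 1 was again the lowest array of each genotype, and the groups overlapped. The log2 change of Car3 was 0.23, with an interval from -1.34 to 1.80 (limma adjusted p = 0.936), and it turned to -0.37 without knockout array 2 and to -1.37 with knockout array 1 alone. The muscle actin gene Acta1 read 565, 32131 and 13869 in knockout and 180, 180 and 29.1 in wild type. Wild-type array 3 thus had the second highest Car3 signal at the lowest Acta1 signal of the 6 arrays. The liver marker Alb read 504, 2909 and 2811 against 709, 678 and 832. The liver list had 6 of 7 genes on the array. It summed to 16597 to 35512 in knockout and 13190 to 35284 in wild type, highest there on array 3. Most of the sum on every array was Cyp2e1, which read 14776, 30758 and 21090 against 13477, 10341 and 32507. The part of muscle or liver RNA in the Car3 signal of knockout arrays 2 and 3 was not tested.

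**Figure D2:**
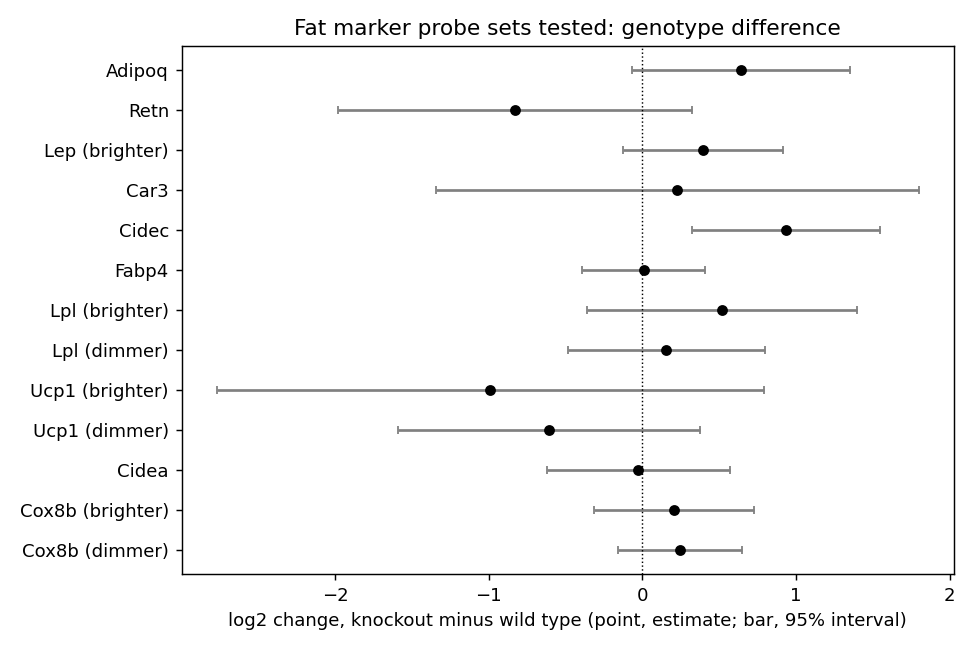
Log2 change (knockout minus wild type, x axis) of the 13 fat marker probe sets tested, with 95% intervals from limma as bars and 0 as a dotted line; brighter and dimmer name the probe sets of a gene that has a pair. The interval of Cidec, from 0.32 to 1.54, lies above 0, and those of the other 12 include 0.

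Over the 6 arrays the members did not move as one block. The 10 genes, each by its brightest probe set, make 45 pairs, and Pearson's r of log2(signal + 16) ran from -0.376 to 0.962 with a median of 0.218. In 5 pairs r was above 0.8 and in 15 it was below 0. After Benjamini-Hochberg adjustment over the 45 pairs none passed in exact permutation tests over the 720 pairings of arrays, for r or for Spearman's rho; 4 pairs had an unadjusted p under 0.05 by r and 3 by rho. A single pair cannot go below an adjusted p of 0.0625 by r in this design.

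Retn and Ucp1 were the closest pair. Their r was 0.962 (exact two-sided permutation p = 0.00139, adjusted p = 0.0625), and rho was 1.0 (p = 0.00278, adjusted p = 0.125), since both genes put the 6 arrays in the same order. Without the 2 arrays farthest from the Retn median, knockout array 1 and wild-type array 2, r was 0.989, and over deviations from each genotype's mean it was 0.960. Adipoq and Lpl had r = 0.885 (exact permutation p = 0.0194, adjusted p = 0.266; rho = 0.886, p = 0.0333, adjusted p = 0.500), and 0.819 without wild-type arrays 1 and 2. Lpl and Cox8b had r = 0.879 (exact permutation p = 0.0236, adjusted p = 0.266; rho = 0.771, p = 0.103, adjusted p = 0.661), and 0.624 without wild-type array 1 and knockout array 2.

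Car3 lay between these pairs. It had r = 0.871 with Lpl (exact permutation p = 0.0153, adjusted p = 0.266; rho = 0.943, p = 0.0167, adjusted p = 0.375) and 0.815 with Ucp1 (exact permutation p = 0.0556, adjusted p = 0.427; rho = 0.600, p = 0.242, adjusted p = 0.725). Without knockout array 1 and wild-type array 1, the 2 arrays farthest from the Car3 median, the first rounded to 1.0 and the second was 0.0378, so that the relation of Car3 and Ucp1 over all 6 arrays rests on that pair of arrays. It was 0.937 over deviations from the genotype means, 0.660 without knockout array 1 and 0.807 without wild-type array 1. Adipoq had r = 0.288 with Ucp1 and 0.197 with Retn over all 6 arrays (exact permutation p = 0.586 and 0.835, adjusted p = 0.994 for both; rho = 0.143 for both, p = 0.803, adjusted p = 0.919). Both values moved widely: they were 0.692 and 0.687 over deviations from the genotype means, and 0.837 and 0.90 without wild-type arrays 1 and 2. Over all 6 arrays the r of Lep with the other members lay between -0.0789 and 0.107, and that of Fabp4 between -0.376 and 0.107. Leaving out 2 arrays moved these values too: Fabp4 and Cox8b had r = -0.966 without knockout array 2 and wild-type array 1.

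**Figure D3:**
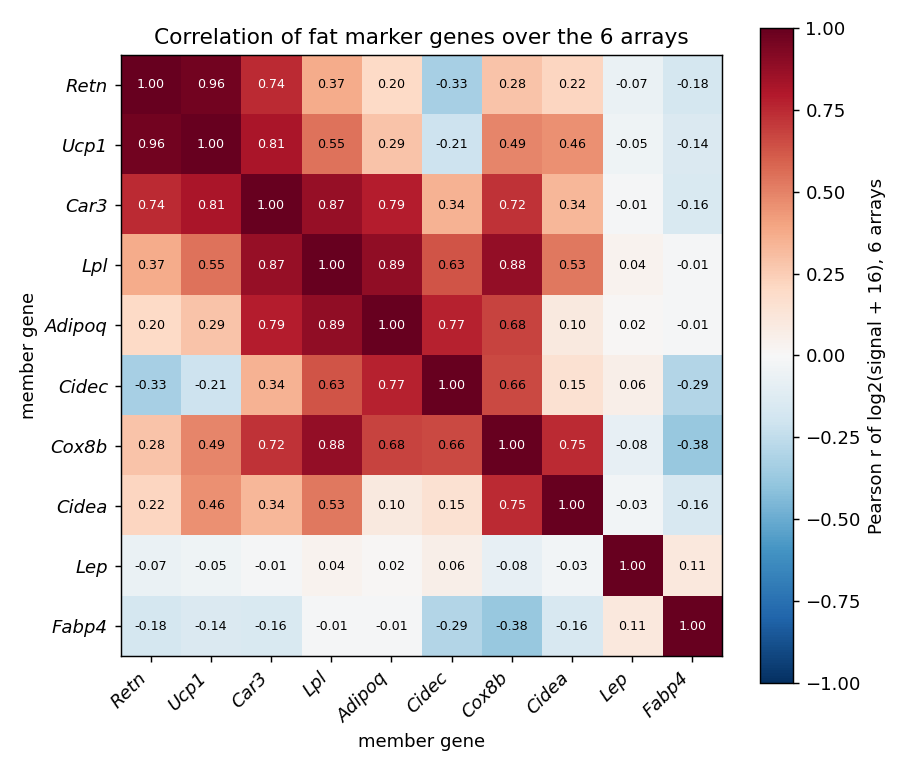
Pearson's r of log2(signal + 16) over the 6 arrays for each pair of fat marker genes (rows and columns, brightest probe sets), on a colour scale from -1 to 1. Retn and Ucp1 reach 0.962, Lpl joins Car3, Adipoq and Cox8b at 0.871 to 0.885, and the rows of Lep and Fabp4 hold values near or below 0.

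The array with the most fat marker signal was knockout array 2, where 6 of the 10 genes were highest. Knockout array 1 was lowest for Ucp1, Retn and Car3, and wild-type array 1 for Adipoq, Lpl and Cox8b. None of the 10 was highest on either of these 2 arrays or on wild-type array 3. The summed signal of the 10 brightest probe sets was 75870, 171268 and 118421 in knockout and 61591, 99574 and 141951 in wild type, so the sums of the groups overlapped.

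**Figure D4:**
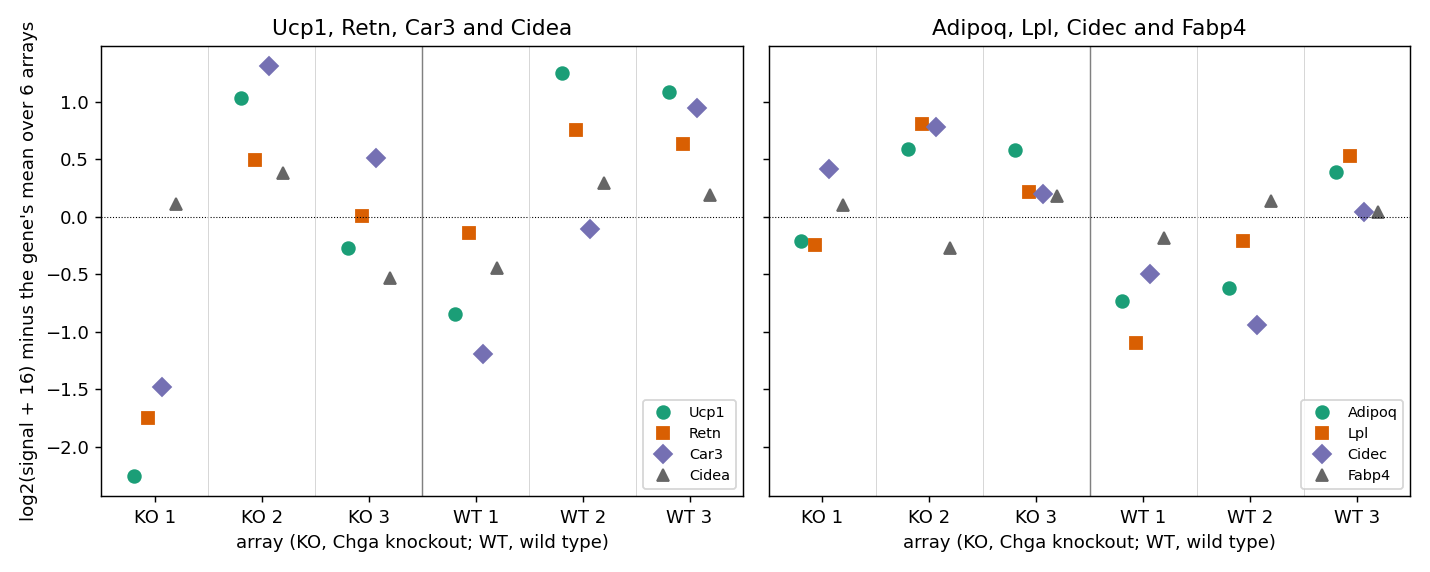
Log2(signal + 16) of 8 fat marker genes on each array, minus the gene's own mean over the 6 arrays (y axis); each symbol is 1 array (x axis, knockout left and wild type right of the grey line). Ucp1, Retn, Car3, Adipoq and Lpl lie below their means on replicate 1 of both genotypes. Fabp4 stays close to 0, and Cidea is lowest on knockout array 3 and then on wild-type array 1.

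The genes outside the 10 whose signals were most like those of Adipoq over the 6 arrays were Acta2 (smooth muscle actin, r = 0.988), Tulp3 (0.981), Capn2 (0.980), Stim1 (0.978) and Gsn (gelsolin, 0.975). Among the members, Lpl ranked 140 and Car3 409 by r with Adipoq out of all 7453 tested probe sets. For Ucp1 the most alike were Atp1b3 (0.988), Dhx30 (0.969), Fnbp4 (0.969), Fndc1 (0.968) and Serpinh1 (0.962), and Retn ranked 6 and Car3 215. With 6 arrays such values are common: 107 tested probe sets had an r above 0.9 with Adipoq and 64 with Ucp1. The genes most like Ucp1 spanned 1.23-fold to 2.83-fold over the arrays, against 11.5-fold for Ucp1 itself.

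Other genes of adipocyte lipid metabolism showed no call either. Of 20 such genes 16 were on the array and 15 were tested, and 0 passed in limma in either direction, with 2 at an unadjusted p under 0.05 and a median log2 change of 0.10. Gpam, which starts triglyceride synthesis, read 17363, 14098 and 12219 in knockout and 21295, 19056 and 22215 in wild type, a change of -0.53 with no overlap (adjusted p = 0.270). Pnpla2, the lipase that opens triglyceride breakdown, read 24196, 28632 and 28040 against 22261, 18119 and 21749, a change of 0.38 with no overlap (adjusted p = 0.384). Slc2a4, the insulin-responsive glucose transporter of fat and muscle, had a change of 0.55 and Mgll, which completes triglyceride breakdown, one of -0.32, both with no overlap and an adjusted p of 0.475. Of the 15 tested genes, 3 lay without overlap above wild type and 2 below. Over all tested probe sets 7.55% lay above and 16.4% had no overlap in either direction. The genes named had the smallest p, which favours groups without overlap. The values of Gpam, Pnpla2, Slc2a4 and Mgll with knockout array 1 alone were -0.26, 0.23, 0.0558 and -0.21. In the fit that also held the 3' to 5' ratio they were -0.16, 0.18, -0.12 and -0.17.

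Scd1, a desaturase gene of the same list named here after its values were seen, spread over the arrays even more than Ucp1. It read 3788, 66940 and 59036 in knockout and 12766, 27164 and 29307 in wild type, a 17.7-fold range with replicate 1 lowest in each genotype (log2 change 0.19, limma adjusted p = 0.961).

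Of 12 other genes of proteins that fat secretes, 9 were on the array and tested. 0 passed in limma, 1 had an unadjusted p under 0.05 and the median log2 change was 0.03. Nampt, an enzyme of NAD synthesis also found in the circulation, read 2935, 2091 and 2702 in knockout and 3193, 4342 and 6112 in wild type, a change of -0.78 with no overlap (adjusted p = 0.315). Nampt was the only 1 of the 9 without overlap, where 16.4% of all tested probe sets had none. Apoe, the lipoprotein gene, had a change of 0.58 (adjusted p = 0.500), the acute phase gene Orm1 one of -0.98 (adjusted p = 0.559) and the imprinted gene Nnat one of 0.26 (adjusted p = 0.602), all with overlap. Apoe was 0.22 without wild-type array 1, and Orm1 ran from -1.56 without knockout array 2 to -0.40 without knockout array 1. Apoe, Orm1 and Nnat were 0.19, -2.13 and 0.0336 with knockout array 1 alone. In the fit that also held the 3' to 5' ratio, Apoe was 0.0566, Orm1 -2.52, Nnat -0.0471 and Nampt -0.50.

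Among transcription factors of adipocyte formation none was called. Of 9 listed, 8 were on the array and tested, with 0 past the threshold in limma, 1 at an unadjusted p under 0.05 and a median log2 change of 0.12. Pparg, the main regulator of adipocyte formation, read 1135, 883 and 790 in knockout and 1081, 893 and 819 in wild type, a change of 0.00. Ebf1, an early factor of adipocyte formation, read 1154, 1408 and 1412 against 988, 905 and 835, a change of 0.53 with no overlap (adjusted p = 0.409). Ebf1 was the only 1 of the 8 without overlap, where 16.4% of all tested probe sets had none. Cebpd, Srebf1 and Cebpa had changes of 0.30, 0.33 and 0.13 (adjusted p = 0.510, 0.560 and 0.812). With knockout array 1 alone Ebf1 was 0.34 and Srebf1 0.0805, and in the fit that also held the 3' to 5' ratio they were 0.27 and -0.0029.

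Of 15 other genes linked to brown fat heat production, 9 were on the array and 5 were bright enough to test. 0 passed in limma, 0 had an unadjusted p under 0.05 and the median log2 change was 0.19. The fatty acid binding gene Fabp3 had a change of 0.52, the dehydrogenase gene Acadl -0.49, the kinase gene Pdk4 0.43 and the nuclear receptor gene Ppara 0.19 (adjusted p = 0.475, 0.510, 0.544 and 0.795), all with overlap. They were, with knockout array 1 alone, 0.85, -0.31, 0.52 and 0.31, and without wild-type array 1 Acadl was -0.20. 3 of the 4 dim genes are defining ones: Ppargc1a read 31.1 to 176 over the 6 arrays, Elovl3 34.5 to 67.3 and Dio2 237 to 755. Dio2, which activates thyroid hormone in brown fat, was lowest on replicate 1 of both genotypes, at 368 in knockout and 237 in wild type. Of the members, Ucp1, Retn, Car3, Adipoq and Lpl were also lowest on replicate 1 of both. Other genes of the fat lists went the opposite way. Pparg, Cebpb, Cebpd, Rxra, Mgll, Acadl and Fabp3 were highest on replicate 1 of both genotypes. The share of all tested probe sets with either pattern was not counted.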

How the data were processed

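Total RNA of 6 adrenal glands was labelled with biotin and read on single-colour Affymetrix arrays, per the labels. The deposited values are linear intensities, which the submitters' processing notes say came from MAS5, with version and scaling target not given. The mean signal without the highest and lowest 2% differed by under 1 between arrays, so no further scaling was applied. No genome build, scan date or batch was given. Platform annotation named the probe sets: of 12422 that are not controls, 10833 had 1 symbol, 396 several and 1193 none.

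Values were taken as log2(signal + 16), which understates changes of dim genes. A filter at the 40th percentile of mean log2 signal (about 582 as a signal) kept 7453 probe sets. Genotypes were compared over these with limma 3.58.1 in R 4.3.3 (eBayes with an intensity trend, Benjamini-Hochberg over all of them, threshold 0.05). Lists used each gene's brightest tested probe set. Member correlations used exact permutations. Both procedures were tested on simulated data. There limma called 43.3% of log2 changes of size 1, 83.6% of size 2 and 98.5% of size 3, with 11 false calls. The member changes were all below 1 in size, and a change of that size would often go uncalled. Nothing in the labels says whether the mice shared litters; p-values measure the spread between these arrays, whose number limits precision.

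Members, lists and tests were chosen with earlier results of these data known. Genes named were all members, up to 4 of each other fat list with the smallest unadjusted p, the 5 most alike to Adipoq and to Ucp1, and array checks; Scd1, Pparg, Ppargc1a, Elovl3, Dio2, Star and Pnmt were added after their values were seen.

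Alternatives were other pseudocounts (1 or 64), dropping or raising the filter (60th percentile), 3 other scalings, eBayes without trend, the replicate number as a block, a covariate for the 3' to 5' ratio of Gapdh and Actb, knockout array 1 alone and each array left out.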

Additional observations from a re-analysis of the deposited data

How the results depend on the processing

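Across the 17 alternatives, 0 member probe sets passed the threshold in limma, and the 45 member pairs gave 0 passes under both other pseudocounts, quantile normalization, median scaling and each left-out array (cyclic loess was not run for the pairs); with 5 arrays no single pair could pass. Retn, both Ucp1 probe sets, Cidec, the brighter Lep probe set and the dimmer Cox8b probe set kept their sign throughout.

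The count over all probe sets was 33. It was 17 without the trend, 11 with a 3' to 5' covariate, 13 with knockout array 1 alone, 57 with the replicate block, and between 15 (without knockout array 3) and 141 (without knockout array 1) with 1 array left out; without wild-type arrays 2 and 3 it was 17 and 21. Same-numbered arrays deviated together with correlations of 0.255, -0.0352 and -0.0389, so the numbers were not read as pairs, and 1 of the 3 knockout arrays was most like its own number. The replicate block called no member. With it the SE fell for the brighter Ucp1 from 0.79 to 0.24, for Retn from 0.51 to 0.25 and for Adipoq from 0.31 to 0.19. Their limma adjusted p were then 0.1525, 0.2416 and 0.2261. The SE rose for Cidec, Fabp4 and the dimmer Cox8b probe set and fell for the other tested member probe sets.

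With the 3' to 5' covariate the log2 change turned sign for Adipoq (-0.0717), Car3 (-1.92), both Lpl probe sets (-0.15 and -0.0677), Cidea (0.15), Slc2a4 (-0.12), Nnat (-0.0471), Srebf1 (-0.0029) and Cebpa (-0.0573). With knockout array 1 alone, which takes that array to vary as the wild-type arrays do, it turned for Car3 (-1.37), the dimmer Lpl probe set (-0.0148), Cidea (0.10) and Cebpa (-0.0118). With 1 array left out, sign changes lay within -0.37 to 1.03 for Car3, -0.0839 to 0.14 for Fabp4, -0.20 to 0.41 for the dimmer Lpl, -0.26 to 0.23 for Cidea, -0.0200 to 0.38 for the brighter Cox8b, -0.0290 to 0.31 for the dimmer Lep and -0.0016 to 0.26 for Cebpa.

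List medians moved by more than their spread to -0.16 (covariate) and -0.13 (knockout array 1 alone) for lipid handling and, with the covariate, to -0.47 for secreted proteins and 0.36 for brown fat genes. With 1 array left out they ran from 0.0363 to 0.22 for transcription factors and 0.0433 to 0.43 for brown fat genes. The causes were not tested.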
